A study of Mus musculus with 2 samples.

Results

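The 10 genes described here encode the main intracellular enzymes that remove peroxides and superoxide: the peroxiredoxins Prdx1, Prdx2, Prdx3, Prdx4, Prdx5 and Prdx6, the glutathione peroxidases Gpx1 and Gpx4, and the superoxide dismutases Sod1 and Sod2. They were chosen by symbol, and each was represented by its RefSeq transcripts plus the transcript models of 300 nt or more that had been assembled from the reads on the same strand over its exons. They are 10 of 23297 genes named in the files, and all 10 were among the 13817 genes compared. The libraries came from spermatogonial progenitor cells, the undifferentiated germ cells of the postnatal testis, of C57BL/6 mice aged 8 days, with 1 library from wild-type mice and 1 from Dnmt3l knockout mice. Dnmt3l encodes a cofactor of the de novo DNA methyltransferases that has no catalytic activity of its own. The labels do not give the knockout allele, the number of animals behind a library or how the cells were isolated. Each genotype had 1 library, so the differences have no replicate check, no p-value was computed, and every value describes these libraries.

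Superoxide, which leaks from the respiratory chain or is made by NADPH oxidases, is converted to hydrogen peroxide by superoxide dismutases. Peroxiredoxins and glutathione peroxidases then reduce the peroxide, the former with electrons mostly from thioredoxin and the latter with electrons from glutathione. In the male germ line Gpx4 is known for its part in sperm maturation, and the loss of Prdx4 or Prdx6 in mice is known to leave sperm more sensitive to oxidation.

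Peroxiredoxins act through a peroxidatic cysteine, and Gpx1 and Gpx4 through a selenocysteine encoded by an in-frame TGA codon. The stretches around these codons are shown because they are what sorts the members into enzyme classes. They are coding-strand sequences of the GENCODE M21 annotation (build GRCm38, which is mm10), written 5′ to 3′ with the catalytic codon in capitals, and each codon was the only match of its search in that coding sequence.
Prdx1 (codon 52, chr4:116691823-116691825, plus strand): tttacttttgtgTGTcccacggagatcat
Prdx2 (codon 51, chr8:84970483-84970485, plus strand): ttcacttttgttTGCcccacggagatcat
Prdx3 (codon 109, chr19:60870127-60870129, minus strand): ttcacatttgtgTGTcctacagaaattgt
Prdx4 (codon 127, chrX:155332460-155332462, minus strand): ttcacctttgtgTGTccaactgaaatcat
Prdx5 (codon 96, chr19:6907988-6907990, minus strand): tttacacctggcTGTtctaagacccacct
Prdx6 (codon 47, chr1:161247368-161247370, minus strand): tttaccccagtgTGCaccacagaacttgg
Gpx1 (codon 47, chr9:108339451-108339453, plus strand): gtcgcgtctctcTGAggcaccacgatccg
Gpx4 (codon 73, chr10:80054737-80054739, plus strand): gtggcctcgcaaTGAggcaaaactgacgt
Over the whole coding sequence, Prdx1 and Prdx2 were the most alike pair of members compared, with 69.51% identical bases. Prdx3 and Prdx4 shared 57.57%, Gpx1 and Gpx4 45.57%, and Sod1 and Sod2 43.18%. RefSeq names 6 pseudogenes of Prdx1, Prdx2, Prdx6 and Gpx4, and no transcript model lay over any of them in either library. How reads that match both a gene and its copy were placed is not given in the sources used here.

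Values are FPKM, a number of fragments scaled by transcript length (in kilobases) and by the mapped fragments of the library, and so a level per length. A gene's value adds up its transcripts and models, and the lower and upper bounds are those of the Cufflinks program, added in the same way. These bounds describe how well each library fixes the estimate and hold nothing on how animals vary. Read counts are not in these files and the depth is unknown, but 1 FPKM stood for 1.10 times as much coverage in the knockout library. Dnmt3l itself was listed at 1.67 FPKM in wild-type cells and at 0 in knockout cells. Differences are given as log2((knockout FPKM + 1)/(wild-type FPKM + 1)), which understates the difference of low genes. Among the 12515 genes with 1 FPKM or more in both libraries the median of this log2 ratio was 0.21, so a ratio relative to the median gene is lower by that amount.

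All 10 genes had a higher summed FPKM in the knockout library, with a median log2 ratio of 0.57 against 0.22 over all genes compared. With the values centred on the median gene 9 of the 10 were above 0, the exception being Prdx1, and after scaling to the sum of all but the 50 most abundant genes 8 were, the exceptions being Prdx1 and Gpx4. Counts of 2-fold differences, here and for the lists, are on this log2(FPKM + 1) scale, while folds printed for single genes are ratios of FPKM. At least 2-fold higher values were found for 2 members, Prdx5 and Sod2, where 7.67% of all genes compared were at least 2-fold higher. No member was at least 2-fold lower, against 3.5% of all genes. The summed bounds of the libraries were apart, with the knockout library higher, for 10 of 10 members and for 35.4% of all genes. These shares are not matched for level. The members ranged from 14.6 to 891 FPKM in wild-type cells, where the median gene compared was at 11.0 FPKM. The 10 also include Sod2, whose difference depended on the measure, and genes whose FPKM lay outside their own bounds, as described below. Of all genes at least 2-fold apart, 68.7% were higher in knockout cells on the deposited scale and 47.4% after centring.

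Transcript length moved with these differences. The longest RefSeq transcript was under 1500 nt for 8 of the 10 members, Prdx6 and Sod2 being the longer ones. Over the 2698 compared genes of that length the median log2 ratio was 0.50, and 15.8% of them were at least 2-fold higher in the knockout library. Over the 11119 longer genes the median was 0.14. When the median of genes of like length was subtracted, a measure added after seeing the data, 6 of the 10 members were above 0 and the median over the members was 0.02. The part of length in the members' differences was not tested.

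**Figure D1:**
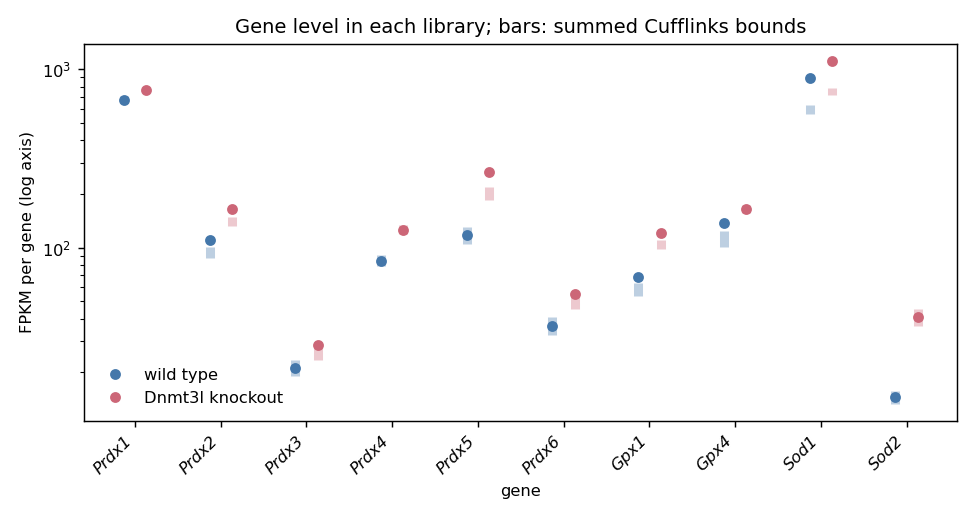
Level of each gene in FPKM (log axis) in the wild-type and knockout libraries, with bars for the summed Cufflinks bounds of each library. Sod1 and Prdx1 lie highest in both libraries, and every knockout point lies above its wild-type point; where a point lies outside its bar, the listed FPKM exceeds its own upper bound.

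The levels spanned a wide range. In the wild-type library the order from high to low was Sod1, Prdx1, Gpx4, Prdx5, Prdx2, Prdx4, Gpx1, Prdx6, Prdx3 and Sod2, from the 99.7th to the 58.1st percentile of genes compared. Prdx1 and Sod1 together held 72.6% of the members' summed FPKM in wild-type and 66.0% in knockout cells. In the knockout library Prdx5 and Prdx2 stood above Gpx4, and Sod2 stood above Prdx3. Among neighbours in the wild-type order, the bounds of Gpx4 overlapped those of Prdx5, and the bounds of Prdx2 overlapped those of Prdx4. In the knockout order Sod1 and Prdx1 were the only neighbours whose bounds overlapped. For some neighbours the bounds ran against the order of the FPKM. In the knockout library the bounds of Prdx2 (132 to 149) lay below those of Gpx4 (156 to 174). In the wild-type library those of Sod1 (558 to 631) lay below those of Prdx1 (647 to 705). The bounds need care for these short genes: of the 30 transcripts and models of the members above 0, 13 had an FPKM outside their own bounds, each time above the upper bound. This held for 3.28% of RefSeq transcripts of 1 FPKM or more, and for 13.1% of those under 1500 nt.

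Prdx1, Prdx2, Prdx3 and Prdx4 are the typical 2-Cys peroxiredoxins, which work as dimers and pass their electrons on from thioredoxin. Prdx1 (chromosome 4, 116685599 to 116700000, plus strand), a cytosolic enzyme, was at 672 FPKM (bounds 647 to 705) in wild-type and 767 FPKM (bounds 745 to 800.0) in knockout cells, a log2 ratio of 0.19. This is the smallest difference among the members, and it lay at -0.01 relative to the median gene. The RefSeq transcript NM_011034 was at 386 FPKM in wild-type and 478 FPKM in knockout cells, a log2 ratio of 0.31.

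An assembled model of Prdx1 was present in each library, and these models differ in structure. The wild-type model of 619 nt, at 286 FPKM, began 487 nt downstream of the RefSeq start in the genome, covered 93.3% of the coding bases and ended before the last of them. The knockout model of 1032 nt, at 289 FPKM, began 290 nt upstream of the RefSeq start and covered 100% of the coding bases. Its first bases lie within AV051173, a transcript annotated on the opposite strand (116684965 to 116686022), which was listed at 0 in both libraries; the library protocol marks no strand, so reads from either strand cannot be told apart there. Because the models differ in length, the gene was also summed as a fragment total (FPKM times length in kb, added after seeing the data), which gave 724 in wild-type and 975 in knockout cells, a log2 ratio of 0.43. Such a total is computed from FPKM and full model length, and is not a count of fragments.

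Prdx2 (chromosome 8, 84969648 to 84974313, plus strand), the cytosolic peroxiredoxin that is abundant in red blood cells, was at 111 FPKM (bounds 87.6 to 101.1) in wild-type and 166 FPKM (bounds 132 to 149) in knockout cells. This is 1.49-fold higher, a log2 ratio of 0.57, and the level lay above the upper bound in both libraries. The erythroid markers summed to 11.2 FPKM in wild-type and 25.3 FPKM in knockout cells. Of the 4 of them compared, 2 were at least 2-fold higher, Hbb-bt was listed at 0 in both libraries, and the part of red blood cells in the Prdx2 difference was not tested.

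Prdx3 (chromosome 19, 60864066 to 60874538, minus strand), the mitochondrial member, was at 21.2 FPKM (bounds 19.1 to 23.4) in wild-type and 28.5 FPKM (bounds 23.4 to 28.7) in knockout cells, a log2 ratio of 0.41. It was the lowest peroxiredoxin in both libraries. Prdx4 (chromosome X, 155323920 to 155338454, minus strand), the member that works in the endoplasmic reticulum and is secreted, was at 84.7 FPKM (bounds 79.0 to 90.9) in wild-type and 126 FPKM (bounds 119 to 133) in knockout cells, a log2 ratio of 0.56. Prdx2, Prdx3 and Prdx4 each had a single RefSeq transcript and no assembled model, so their values did not depend on how models were summed. After the length medians were subtracted their log2 ratios were 0.03, -0.01 and 0.02.

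Prdx5 (chromosome 19, 6906819 to 6909645, minus strand) is the atypical 2-Cys enzyme, which acts as a monomer in mitochondria, peroxisomes and the cytosol. Its level was 117 FPKM (bounds 105 to 130) in wild-type and 266 FPKM (bounds 185 to 219) in knockout cells. It was 2.26-fold higher, a log2 ratio of 1.17, which left 0.97 after the median gene was subtracted. The RefSeq transcript NM_012021 was at 83.9 FPKM in wild-type and 153 FPKM in knockout cells, a log2 ratio of 0.86, and the assembled models were at 33.5 FPKM (672 nt) and 112 FPKM (590 nt). The fragment total of the gene was 80.2 in wild-type and 172 in knockout cells, 2.14-fold higher. Prdx5 was the only member at least 2-fold higher on that measure, where 6.2% of all genes were. The difference was therefore present in the RefSeq transcript, in the assembled models and in the fragment total, which all rest on the same FPKM values. It was at 0.64 on the log2 scale after the length medians were subtracted. In the knockout library the RefSeq transcript and the assembled model lay above their own upper bounds (127 and 92.0 FPKM). In the wild-type library both lay inside theirs, so the size of the difference is uncertain.

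The assembled Prdx5 models of both libraries covered 74.76% of the coding bases. The knockout model reached 279 nt past the RefSeq start and placed 27 exon bases inside Trmt112, a gene for a methyltransferase subunit on the opposite strand that starts 52 nt from Prdx5. Trmt112 was at 64.2 FPKM in wild-type and 115 FPKM in knockout cells, 1.78-fold higher. Reads of this neighbouring pair cannot be told apart where their models overlap.

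Prdx6 (chromosome 1, 161240112 to 161251166, minus strand) is the 1-Cys peroxiredoxin, which uses glutathione and also has phospholipase activity. It was at 36.6 FPKM (bounds 32.4 to 40.8) in wild-type and 54.7 FPKM (bounds 45.5 to 55.8) in knockout cells, a log2 ratio of 0.57. The RefSeq transcript NM_007453 alone was at 12.3 FPKM in wild-type and 11.3 FPKM in knockout cells, a log2 ratio of -0.12. The higher sum thus came from the assembled models, at 24.2 FPKM in wild-type and 43.5 FPKM in knockout cells. These models of 1467 and 1217 nt ended 1010 and 995 nt before the RefSeq end. The fragment total of the gene was 64.4 in wild-type and 79.2 in knockout cells, 1.23-fold higher.

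**Figure D2:**
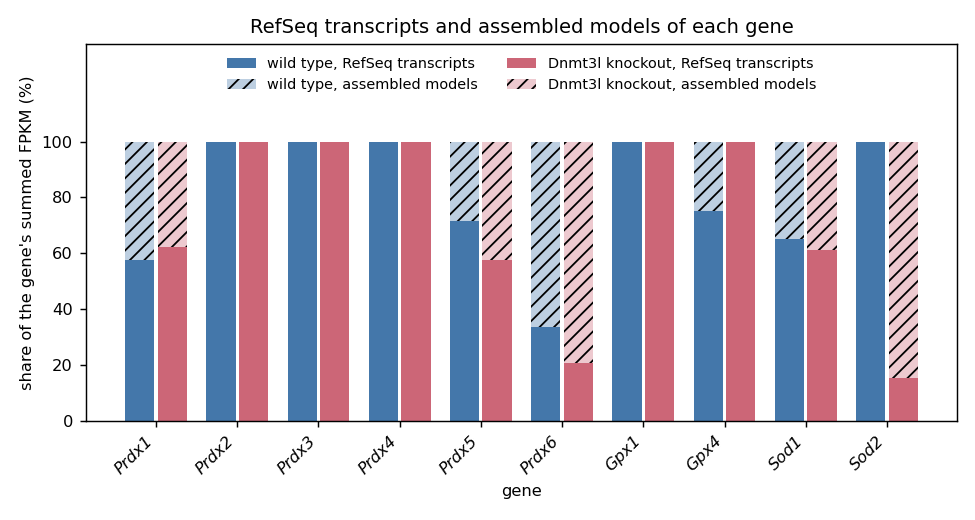
Share of each gene's summed FPKM (%) carried by RefSeq transcripts (solid) and by assembled models (hatched) in each library. Prdx2, Prdx3, Prdx4 and Gpx1 have RefSeq transcripts only, while Sod2 has 100% in its RefSeq transcript in the wild-type and 84.5% in an assembled model in the knockout library.

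Gpx1 (chromosome 9, 108339080 to 108340344, plus strand), the main cytosolic glutathione peroxidase, was at 68.1 FPKM (bounds 53.3 to 63.0) in wild-type and 122 FPKM (bounds 98.9 to 111) in knockout cells. The knockout value was 1.79-fold higher, a log2 ratio of 0.83, and it came from 1 RefSeq transcript with no assembled model. Relative to the median gene the log2 ratio was 0.62, and it was 0.28 after the length medians were subtracted.

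Gpx4 (chromosome 10, 80053510 to 80056439, plus strand), which reduces lipid hydroperoxides within membranes, was at 137 FPKM (bounds 100.4 to 124) in wild-type and 165 FPKM (bounds 156 to 174) in knockout cells, a log2 ratio of 0.27. Its transcript NM_008162 was at 103 FPKM in wild-type and 165 FPKM in knockout cells, a log2 ratio of 0.68. The smaller gene ratio reflects an assembled model of 540 nt at 34.0 FPKM that was listed in the wild-type library alone. A further transcript, NM_001037741, which begins at an alternative first exon and encodes the nuclear form known from sperm, was listed at 0 in both libraries, with upper bounds of 0.124 FPKM in wild-type and 0.137 FPKM in knockout cells.

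Sod1 (chromosome 16, 90220742 to 90226324, plus strand), the copper and zinc dismutase of the cytosol, had the highest summed FPKM of the members. It was at 891 FPKM (bounds 558 to 631) in wild-type and 1112 FPKM (bounds 714 to 790.2) in knockout cells. As a fragment total it was below Prdx1, at 485 against 724 in wild-type and 604 against 975 in knockout cells. The log2 ratio was 0.32, and 0.11 relative to the median gene. The RefSeq transcript was at 581 FPKM in wild-type and 679 FPKM in knockout cells, and assembled models of 351 and 380 nt inside it were at 309.5 and 433 FPKM. Each of these 4 values lay above its own upper bound, so the absolute level of Sod1 and its rank against Prdx1 are uncertain.

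Sod2 (chromosome 17, 13007839 to 13018119, plus strand), the manganese dismutase of mitochondria, was at 14.6 FPKM (bounds 13.4 to 15.7) in wild-type and 41.0 FPKM (bounds 36.6 to 45.3) in knockout cells. This is 2.81-fold higher, a log2 ratio of 1.43, the largest among the members. The direction depended on the measure. The RefSeq transcript NM_013671, of 3824 nt, was at 14.6 FPKM in wild-type and 6.34 FPKM in knockout cells, a log2 ratio of -1.09. A further measure, called the exon level, averages over RefSeq exon bases the FPKM of all models that cover a base, and gave -0.02. The fragment total of Sod2 was 55.8 in wild-type and 56.6 in knockout cells, 1.02-fold higher. The 2-fold difference in FPKM was thus not present in the fragment total.

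What differed was the model that carried the fragment total. In the knockout library an assembled model of 935 nt at 34.6 FPKM carried 84.5% of the FPKM of Sod2 and 57.2% of its fragment total. It covered all 666 coding bases and ended 17 nt beyond the last of them, 2934 nt before the RefSeq end. The wild-type library had no such model. Polyadenylation signals were searched as AATAAA or ATTAAA on the transcript strand, from 39 nt before to 10 nt beyond each model end. None lay near the end of the short Sod2 model, and AATAAA began 23 nt before the RefSeq end. That site is shown with the signal in capitals because it marks the annotated end of the RefSeq transcript, which is listed in both libraries (GRCm38, plus strand, chr17:13018092-13018121). Whether reads of either library end there is not given.
Sod2 RefSeq end: tactAATAAAagcaaaggtaacaaagtatc
A missing match says only that these letters are not in that window. Whether the short model is a transcript with an end of its own or a fragment of the assembly was not tested.

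**Figure D3:**
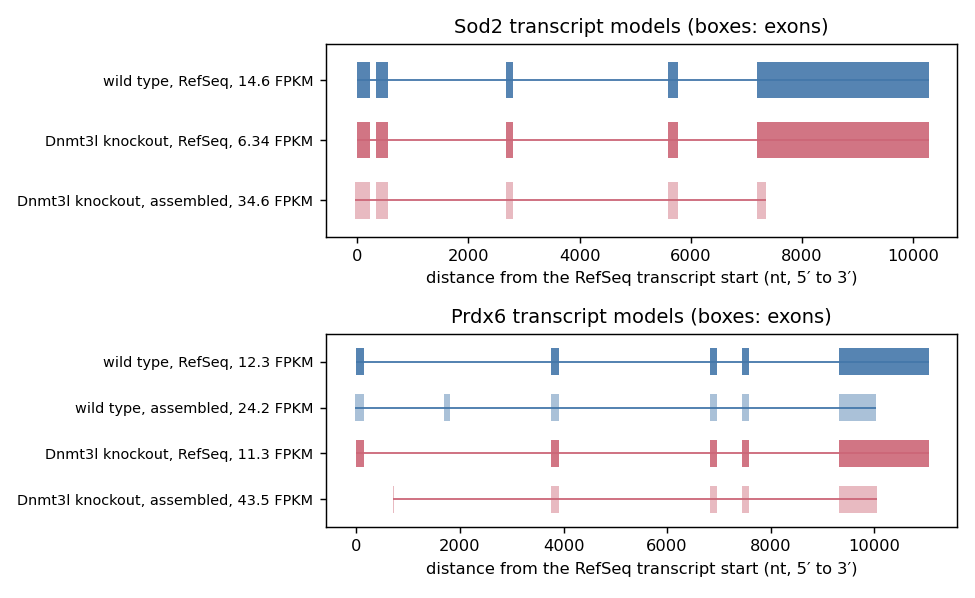
Exon maps of the RefSeq transcripts and assembled models of Sod2 and Prdx6, by distance from the RefSeq transcript start (nt, 5′ to 3′), with the library and FPKM of each. The knockout model of Sod2 stops 2934 nt before the RefSeq end and the Prdx6 models stop 1010 and 995 nt before it.

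Across measures, Prdx2, Prdx4, Prdx5 and Gpx1 were higher in the knockout library under all 14 alternatives tried. The other members crossed 0 under at least 1: Prdx1 under the scalings and length medians, Gpx4 under scaling to the total and length medians, Sod1 and Prdx3 under length medians, Prdx6 with RefSeq transcripts alone, and Sod2 both there and at the exon level. Pseudocounts and filters cannot change the sign of a ratio. For Prdx2, Prdx4 and Gpx1, which had no assembled model, the RefSeq, exon-level and fragment measures gave nearly the same value again. After the length medians were subtracted, Prdx2 was at 0.03, Prdx4 at 0.02, Gpx1 at 0.28 and Prdx5 at 0.64.

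**Figure D4:**
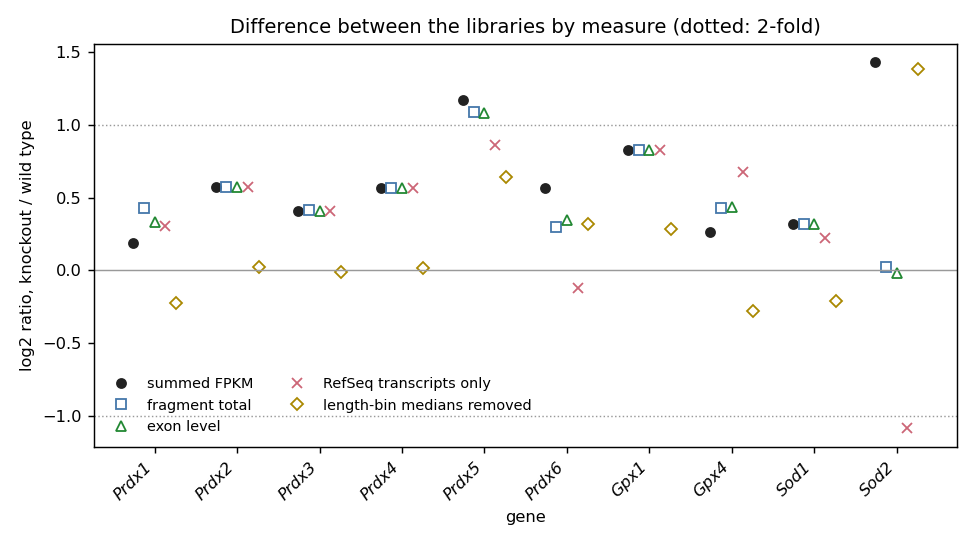
Log2 ratio of the knockout to the wild-type library for each gene by 5 measures, with dotted lines at 2-fold. Prdx2, Prdx4, Prdx5 and Gpx1 lie above 0 by every measure drawn, and the Sod2 points run from -1.09 with RefSeq transcripts alone to 1.43 with all models summed.

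Markers of other testis cells also differed between the libraries. The 12 Sertoli cell markers summed to 574 FPKM in wild-type and 1294 FPKM in knockout cells, and 7 of them were at least 2-fold higher. The 12 macrophage markers summed to 559 and 1093 FPKM, the 7 Leydig cell markers to 86.1 and 179.5 FPKM, the 8 endothelial markers to 67.2 and 136 FPKM, and the 8 peritubular and stromal markers to 536 and 807 FPKM. The 12 germ cell markers summed to 1419 FPKM in wild-type and 1229 FPKM in knockout cells, with a median log2 ratio of -0.18. They did not move together: 1 was at least 2-fold lower, Kit, at 21.7 FPKM in wild-type and 5.93 FPKM in knockout cells. Zbtb16 was at -0.97 and Sohlh2 at -0.77 on the log2 scale, while 4 of the 12 were above 0, among them Gfra1 at 0.80. Star was listed at 0 in both libraries, Tsx and Srd5a1 had a listed 0 in wild-type cells, and Cd68 was listed at 24.6 FPKM in wild-type cells and at 0 in knockout cells. Of the 12 macrophage markers 6 were at least 2-fold higher and 1, Cd68, lower, with 9 above 0 on the log2 scale. The members are expressed in many cell types, and the part of these cells in the members' differences was not tested. In such bulk libraries fewer cells of a type and less RNA per cell cannot be told apart.

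RefSeq (GRCm38.p6) gave a window from 250 bases before to 50 bases after the start for 9 of the 10 members, all but Prdx6. The Prdx5 window (chromosome 19, 6910057 to 6910356) does not hold the start of the deposited transcript, at 6909645. The antioxidant response element, bound by the stress factor NRF2, was searched as TGACNNNGC on both strands. It was present in 2 of the 12 windows of members, those of Prdx1 and Sod1, and in 12.4% of 32851 windows of all genes. The matches are shown with the element in capitals, on the plus strand, where it reads as its reverse complement; it lies 133 bases before the Prdx1 start and 56 bases before the Sod1 start of the RefSeq promoter table, whose Sod1 start is not the one of the deposited transcript.
Prdx1 (chr4:116685456-116685485): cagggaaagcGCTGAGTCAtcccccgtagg
Sod1 (chr16:90220696-90220725): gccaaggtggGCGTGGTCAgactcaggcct
Prdx1 and Sod1 had log2 ratios of 0.19 and 0.32, below the members' median of 0.57, and a match is a description, not a site of binding.

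The other genes of these pathways were read from lists, beside the 7.67% of all genes at least 2-fold higher and the median of 0.22. Of the 7 other peroxidases and dismutases compared, 2 were at least 2-fold higher and none lower, with a median log2 ratio of 0.78. After centring 0 were at least 2-fold higher and the median was 0.57, and with length medians subtracted 0 were and it was 0.23. Gpx3, the secreted glutathione peroxidase, was at 8.49 FPKM in wild-type and 19.1 FPKM in knockout cells. Sod3, the extracellular dismutase, was at 15.7 and 29.6 FPKM, and Gpx8 and Gpx7, peroxidases of the endoplasmic reticulum, were at 17.2 and 30.2 FPKM and at 9.55 and 15.5 FPKM, in the same order.

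The next lists centre on the systems that supply the members with electrons, although not every gene in them does so. Of 13 thioredoxin system genes 0 were at least 2-fold apart, with a median of 0.30, and with a pseudocount of 0.1 the count was 1, Nxn. Txn1 and Txn2, the cytosolic and mitochondrial thioredoxins that serve the peroxiredoxins, had log2 ratios of 0.55 and 0.56, Sesn2 had 0.52, and Nxn had 0.96 (2.04-fold in FPKM) but -0.70 with RefSeq transcripts alone. Of 11 genes of glutathione synthesis and reduction 1 was at least 2-fold higher, with a median of 0.20, which was -0.01 after centring. That gene was Ggt5, at 1.16, but at 0.28 with RefSeq transcripts alone, 0.62 at the exon level and 0.74 as a fragment total, and no gene of the list was at least 2-fold higher after centring. It was followed by Slc3a2 at 0.72, G6pdx, which makes NADPH, at 0.70 and Pgd at 0.23, which was -0.32 with RefSeq transcripts alone. The 4 glutaredoxins had a median of 0.53 with 0 at least 2-fold apart, among them Glrx3, at 34.6 FPKM in wild-type and 53.0 FPKM in knockout cells.

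Of 22 glutathione transferases 4 were at least 2-fold higher and none lower, with a median of 0.58. With length medians subtracted 2 were at least 2-fold higher and 1 lower, and the median was 0.03. Gstp1 was at 59.4 FPKM in wild-type and 141 FPKM in knockout cells and Gstp2 at 30.5 and 98.7 FPKM, a closely related pair between which reads may be divided. Gstt1 had a log2 ratio of 1.05, and Gstm4 was listed at 0 in wild-type and 5.22 FPKM in knockout cells. Of 17 genes of the NRF2 pathway 2 were at least 2-fold higher, with a median of 0.36 that was -0.07 with RefSeq transcripts alone. Fth1, the ferritin heavy chain, was at 519 and 1075 FPKM, Hmox1, which degrades haem, at 91.1 and 178 FPKM, and Bach1, a repressor of these targets, at 7.10 and 3.26 FPKM. Tkt had a log2 ratio of 1.56, and -0.73 with RefSeq transcripts alone. These are the genes of largest ratio in the list. The target Nqo1 was at 0.11, Nfe2l1 at -0.02 and Mafg at -0.40, while 14 of the 17 genes were above 0.

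Gpx1 and Gpx4 depend on selenoprotein synthesis, and of its 10 genes 0 were at least 2-fold apart, with a median of 0.32. With a pseudocount of 0.1 or after centring 1 was lower, Secisbp2l, at 11.7 FPKM in wild-type and 5.39 FPKM in knockout cells. Secisbp2l and Sepsecs had log2 ratios of -0.99 and -0.73, and Pstk and Trnau1ap of 0.80 and 0.61. Of 8 oxidant-producing enzymes 3 were at least 2-fold higher, with a median of 0.62. Among them were the NADPH oxidase subunit Cyba at 1.10 and the GTPase Rac2 at 1.14, and Ncf1 had 0.50, while Cybb, the catalytic subunit of the phagocyte oxidase, had 0.05. After centring the count was 1. These genes are known from phagocytes, whose markers are given above, and the part of such cells in these values was not tested. Of 4 methionine sulfoxide reductases 1 was at least 2-fold higher, Msrb1, at 17.9 FPKM in wild-type and 46.6 FPKM in knockout cells, while Msrb3 was at 6.91 and 4.92 FPKM (log2 ratio -0.42, but 0.22 with RefSeq transcripts alone).

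**Figure D5:**
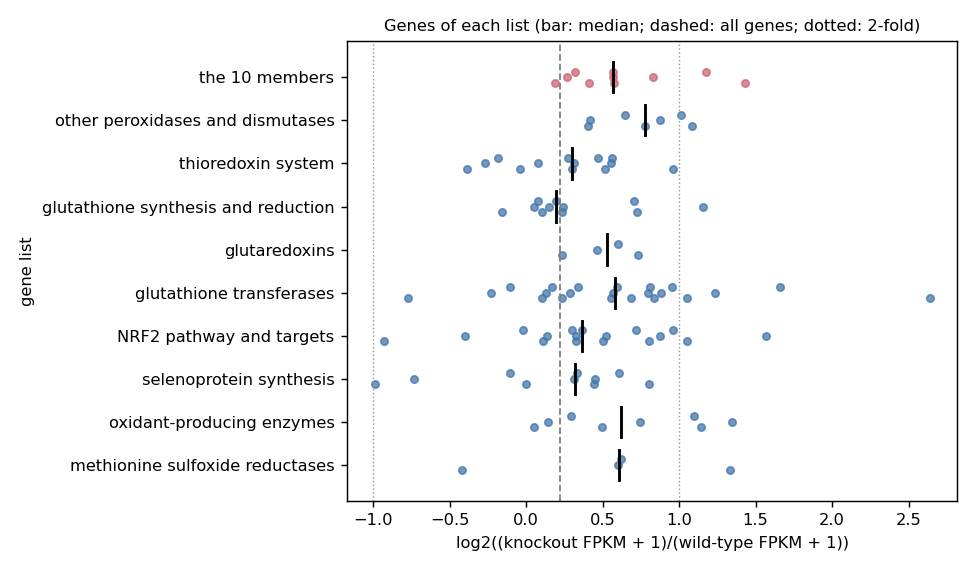
Log2((knockout FPKM + 1)/(wild-type FPKM + 1)) of the genes of each list (points), with a bar at the list median, a dashed line at the median of all genes and dotted lines at 2-fold. The medians of the 9 pathway lists lie between 0.20 for glutathione synthesis and reduction and 0.78 for the other peroxidases and dismutases.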

How the data were processed

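Poly(A) RNA of 1 wild-type and 1 Dnmt3l knockout library was sequenced with paired-end reads of 100 nt, per the labels' protocols, which name no step that marks the strand. Per the submitters' processing notes, the tools were CASAVA 1.9, TopHat2 2.0.8 and Cufflinks 2.1.1 on mm10; settings are not given in the sources used here. Every deposited file lists transcripts with the authors' FPKM, its bounds and a coverage; counts were not used, as none are in these files. RefSeq identifiers were named by accession for 28938 of 30079, by other routes for the rest, and 43 had no name. Genes reaching 1 FPKM in either library were compared with a pseudocount of 1. No test was made. A fold of 2 was the call rule. The 10 members and all lists were chosen with earlier results of these data known. Named genes were the members, neighbours overlapping them, up to 4 genes per list with the largest absolute ratio among genes of 5 FPKM or more, and Dnmt3l; some genes named by this rule are not reported here. Alternatives were pseudocounts, filters, scalings, RefSeq transcripts alone, the exon level and coverage, with the fragment total and length medians added after seeing the data. Python 3.11.15, numpy 2.4.6 and pandas 2.3.3 were used. Coding sequences came from GENCODE M21 and promoters from RefSeq.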

Additional observations from a re-analysis of the deposited data

How the results depend on the processing

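The log2 ratio of Sod2 reversed from 1.43 to -1.09 with RefSeq transcripts only and with the most abundant RefSeq transcript, and to -0.017 at the exon level, where the assembled model of the knockout library is left out or spread over the RefSeq exons. The median over the 10 members was above 0 in 14 of 14 alternatives, although pseudocounts and filters could not have changed its sign. It moved from 0.57 to 0.27 on scaling to the sum of all but the 50 most abundant genes. With length-bin medians removed it was 0.022. The count of members at least 2-fold higher, 2 as reported, was 1 when centred on the median gene, under upper-quartile scaling, under that sum, at the exon level, as a fragment total and with length-bin medians removed. It was 0 with RefSeq transcripts only and with the most abundant RefSeq transcript, and 3 at 1.5-fold. The count at least 2-fold lower, 0 as reported, was 1 with RefSeq transcripts only and with the most abundant RefSeq transcript. The cause of the moves under the scalings was not tested. Of all genes at least 2-fold apart, 1060 were higher and 483 lower as reported, against 673 and 748 after centring and 1436 and 1392 with RefSeq transcripts only. Among the pathway lists, the count at least 2-fold higher after centring was 3 for the glutathione transferases (4 as reported), 1 for the NRF2 genes (2), 1 for the oxidant-producing enzymes (3) and 0 for the other peroxidases and dismutases (2) and for glutathione synthesis and reduction (1). With length-bin medians removed, the list medians were -0.16 for glutathione synthesis and reduction, -0.06 for the thioredoxin system and 0.03 for the glutathione transferases. They were 0.10 for the NRF2 genes, 0.12 for selenoprotein synthesis and 0.18 for the methionine sulfoxide reductases. The glutaredoxins were at 0.20, the other peroxidases and dismutases at 0.23 and the oxidant-producing enzymes at 0.28. No paired analysis was possible because there is 1 library per genotype, and for the same reason no library could be left out. Without counts, the depth behind each value is unknown.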
